A study of Homo sapiens with 36 samples.

Results

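The replication-dependent histone genes were examined in chromatin immunoprecipitation sequencing (ChIP-seq) peak lists from A549, a human lung adenocarcinoma cell line, and BEAS-2B (B2B), an immortalized human bronchial epithelial cell line. Members were the GENCODE protein-coding genes with the symbols H1-1 to H1-6, or H2AC, H2BC, H3C or H4C followed by a number, and the rule found 69 of 20046 genes. Of these, 55 lay on chromosome 6, 13 on chromosome 1 and 1, H4C16, on chromosome 12. They comprised 6 genes of the linker histone H1, 17 of H2A, 18 of H2B, 13 of H3 and 15 of H4.

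The series held 36 samples in 18 groups of 2 replicates, of which 4 samples were input chromatin. No treatment was given to either line, and the comparison of the lines addressed how a lung cancer line differs from a non-cancerous bronchial line. Antibodies against RNA polymerase II (pol II), H3K4me3, H3K27ac, the Mediator subunit Med1 and the AP-1 subunits JunB, Jun and JunD were used in both lines, and CTCF and the cohesin subunit Rad21 were analysed in B2B only. With 1 line of each kind, the cancer state and the identity of the line cannot be told apart.

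The replicates had been merged before peaks were called. Each of the 16 lists therefore gave 1 pooled value per gene, with no replicate error, and no difference between the lines could be tested. A gene was scored as positive when at least 1 peak came within 1 kb of an annotated start site. Its fold enrichment was the deposited ratio of pileup to local background at the strongest such peak, and its percentile was the rank of that ratio among all peaks of the same list on chromosomes 1 to 12. Because 4 lists lacked other chromosomes in part, all 12573 protein-coding genes on chromosomes 1 to 12 served as the background. As a check of the labels, the epithelial genes KRT8, KRT18, EPCAM and CDH1 had an H3K4me3 peak in both lines, and the leukocyte genes PTPRC and CD3E and the endothelial gene PECAM1 had none. The glial gene GFAP had a weak H3K4me3 peak in A549, at a fold enrichment of 5.23, and none in B2B. CDKN2A, a cell-cycle inhibitor gene known to be deleted in A549, had no H3K4me3 peak in A549 and one at 10.7 in B2B, while its neighbour MTAP had one in both.

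Replication-dependent histones package DNA that is being copied, and their genes are transcribed mainly in S phase. Their short transcripts lack introns and end in a stem-loop rather than a poly(A) tail, and several genes of each class stand side by side in clusters. The clusters gather in a nuclear structure, the histone locus body, which is organised by the coactivator NPAT. Because many copies are active at once, these loci are known for dense pol II.

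The members fell into 6 runs along the genome. On chromosome 6, the first run held 34 genes from H2AC1 to H4C8 over 559 kb, the second held 5 genes from H2BC11 to H2AC12 over 14.3 kb, and the third held 16 genes from H2BC13 to H2BC17 over 85.5 kb. On chromosome 1, 11 genes from H2BC18 to H2AC21 spanned 75.6 kb at 1q21, and the pair H2AC25 and H2BC26 stood apart. The encoded proteins were far fewer than the genes in some classes. The 15 H4 genes encoded 2 distinct proteins, of which 14 genes shared 1, and the 13 H3 genes also encoded 2, shared by 10 genes and by H3C13, H3C14 and H3C15. The 17 H2A genes encoded 11 distinct proteins, the 18 H2B genes 14, and the 6 H1 genes 6.

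Many members were arranged head to head, so that 1 stretch of DNA served as the promoter of both genes. There were 13 such divergent pairs with 26 genes, of which 12 joined an H2A and an H2B gene. The stretch between the starts was 193 to 978 bp long, with a median of 239 bp. The hg38 sequences of 4 of these stretches are shown because they stand for the 3 patterns seen in the peaks, namely marked in both lines, marked in B2B only and marked in neither line. They are given on the plus strand, from the base after the minus-strand start to the base before the plus-strand start. Capitals mark TATAAA (the TATA box), CCAAT (the CCAAT box, read by NF-Y) and ATTTGCAT (the octamer, read by OCT1) on either strand, and overlapping matches run together.
H2BC11 and H2AC11 (chr6:27132796-27133042, marked in both lines): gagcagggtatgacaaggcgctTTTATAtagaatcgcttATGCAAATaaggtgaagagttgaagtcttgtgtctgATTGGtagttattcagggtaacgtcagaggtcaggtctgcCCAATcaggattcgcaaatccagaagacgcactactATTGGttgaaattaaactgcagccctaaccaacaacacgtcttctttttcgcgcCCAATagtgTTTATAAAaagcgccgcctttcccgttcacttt
H2AC7 and H2BC7 (chr6:26199294-26199515, marked in B2B only): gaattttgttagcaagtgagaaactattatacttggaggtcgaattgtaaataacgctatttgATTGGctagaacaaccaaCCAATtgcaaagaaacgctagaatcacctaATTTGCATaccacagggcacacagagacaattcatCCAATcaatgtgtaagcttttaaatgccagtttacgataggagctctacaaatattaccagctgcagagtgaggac
H2BC8 and H2AC8 (chr6:26216689-26216920, marked in B2B only): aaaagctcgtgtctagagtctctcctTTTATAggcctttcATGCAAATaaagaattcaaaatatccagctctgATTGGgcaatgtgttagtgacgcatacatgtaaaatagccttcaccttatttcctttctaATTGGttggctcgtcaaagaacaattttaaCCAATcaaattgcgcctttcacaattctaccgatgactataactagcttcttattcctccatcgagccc
H2AC1 and H2BC1 (chr6:25726563-25726776, marked in neither line): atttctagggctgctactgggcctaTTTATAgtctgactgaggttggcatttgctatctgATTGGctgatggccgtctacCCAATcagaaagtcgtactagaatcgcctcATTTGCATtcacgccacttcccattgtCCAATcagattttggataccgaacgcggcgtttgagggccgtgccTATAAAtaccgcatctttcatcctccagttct

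All 4 stretches held CCAAT and the octamer, and 3 of them TATAAA. H2AC1 and H2BC1, with no peak, had 2 TATAAA, 3 CCAAT and 1 octamer, and H2BC11 and H2AC11, marked in both lines, had 3, 4 and 1. H2BC8 and H2AC8 had 1, 3 and 1, and H2AC7 and H2BC7 had 0, 3 and 1. Over the 12 pairs less than 300 bp apart, every stretch held CCAAT, at a median of 3 copies and up to 6, while 9 held TATAAA and 9 held the octamer.

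The classes differed in the motifs of their promoters, which were read from RefSeq (GRCh38.p14) for 64 of the 69 members as 250 bases before to 50 after the start. TATAAA was present in 42 of 64 promoters, against 9.63% of 15345 coding promoters. CCAAT was present in all 6 H1, all 16 H2A, all 18 H2B and all 11 H3 promoters but in 3 of 13 H4 promoters, against 36.6% of coding promoters. The octamer was present in 11 of 16 H2A and 14 of 18 H2B promoters, in 1 of 11 H3 promoters (H3C4), and in no H1 or H4 promoter, against 1.7%. AAACACA, the H1 box, was present in 6 of 6 H1 promoters and in 3 others, against 4.25%. GGTCCG, part of the element read by HINFP at H4 genes, was present in 12 of 13 H4 promoters and in 3 others, against 14.6%. Both strands were searched for every motif. The promoters of H2AC12, H3C11, H3C12, H4C1 and H4C3 were not matched.

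**Figure D1:**
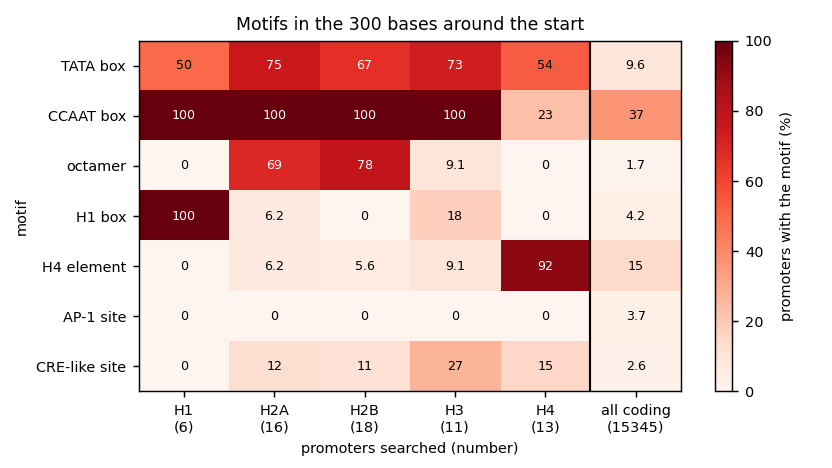
Share of promoters (%) that hold each motif, by histone class and over all coding promoters, with the number of promoters in brackets. CCAAT stands in every H1, H2A, H2B and H3 promoter and in 3 of 13 H4 promoters, the octamer in H2A and H2B promoters, and the AP-1 motif in none.

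Pol II, H3K4me3, H3K27ac and Med1 lay at most members in both lines, and B2B marked more of them than A549. By class, pol II peaks lay at 3 of 6 linker histone H1 genes in A549 and 5 in B2B, at 14 and 16 of 17 H2A, 15 and 17 of 18 H2B, 11 and 13 of 13 H3, and 13 and 14 of 15 H4 genes. Of the 69 members, 54 had peaks of all 4 targets in both lines, which was 78.3% of members against 42.1% of the 12573 genes. Some of these calls rested on the peak of a neighbouring member. H2BC9 counted in A549 only through peaks shared with H3C7, and pol II covered 0.0% of its transcript there, against 88.7% in B2B. The share of members was lower when the summit had to lie within 1 kb, as given below, and it has no background under that rule. No member had all 4 in A549 and none in B2B, against 1.5% of all genes. All 13 members on chromosome 1 and H4C16 had all 4 targets in both lines, so that every call of these targets missing from a line was on chromosome 6.

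Counted list by list, pol II peaks lay at 56 members in A549 and 65 in B2B, against backgrounds of 66.9% and 50.2% of genes. H3K4me3, a mark of active promoters, lay at 57 members in A549 and 65 in B2B (72.9% and 62.0% of genes). H3K27ac, which marks active promoters and enhancers, lay at 57 and 64 members (71.6% and 62.8%). Med1 lay at 55 and 65 members (52.8% and 59.1%). Members as a group thus stood above the background in all 8 of these lists. The gaps were smallest in A549 for H3K4me3, 82.6% against 72.9%, and H3K27ac, 82.6% against 71.6%. When the summit had to lie within 1 kb, the H3K4me3 share in A549 fell to 63.8%. No background is given under that rule.

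Peaks in 1 line only ran towards B2B. For pol II, 0 members had a peak in A549 only and 9 in B2B only, against 18.0% and 1.3% of all genes. For H3K4me3 the counts were 0 and 8 (12.1% and 1.23%), for H3K27ac 1 and 8 (10.8% and 1.96%) and for Med1 0 and 10 (3.79% and 10.2%). Over all genes, A549-only peaks thus outnumbered B2B-only peaks for pol II, H3K4me3 and H3K27ac, and at the members the order was the other way round. Neighbouring members shared peaks, with up to 3 genes on 1 peak, so the genes do not count as independent observations. With overlapping start windows merged into 46, pol II lay at 37 windows in A549 and 43 in B2B.

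**Figure D2:**
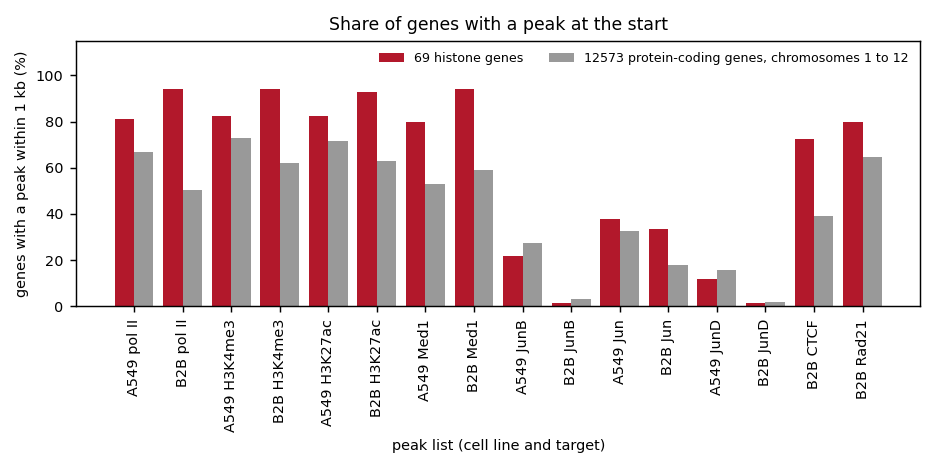
Share (%) of the 69 histone genes and of all protein-coding genes on chromosomes 1 to 12 with a peak within 1 kb of a start, for each of the 16 lists. The members stand above all genes for pol II, H3K4me3, H3K27ac, Med1, CTCF, Rad21 and B2B Jun, and near them for A549 Jun, JunB and JunD.

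**Figure D3:**
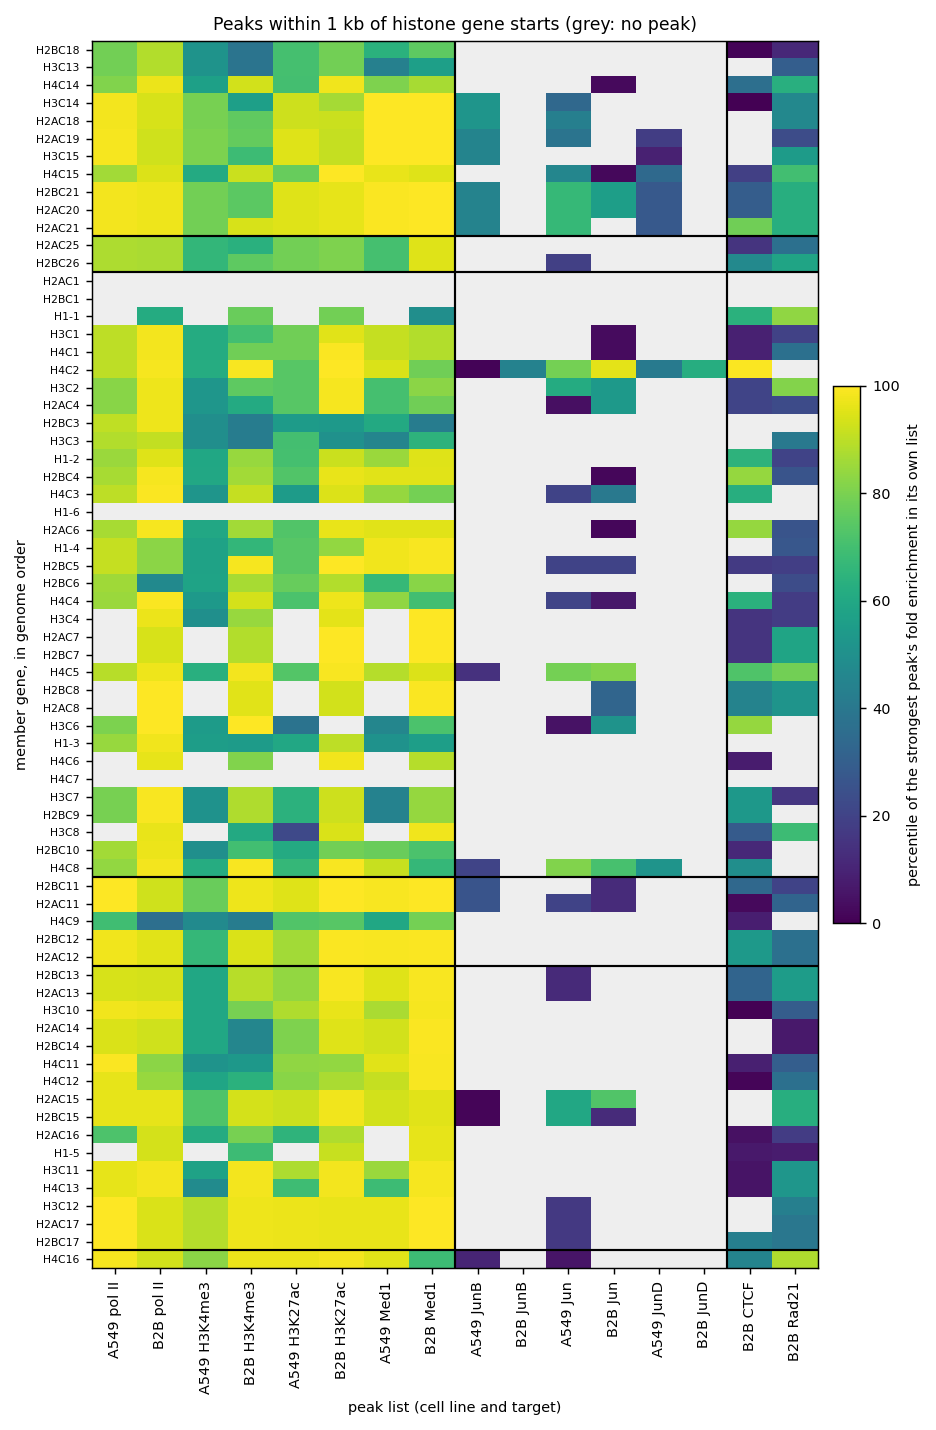
Map of the 69 members (rows, genome order, lines between runs) against the 16 lists (columns), coloured by the percentile of the strongest peak in its own list, with grey for no peak. The grey rows are H2AC1, H2BC1, H1-6 and H4C7, and the rows grey in A549 and coloured in B2B for the first 8 columns are the 7 genes described next.

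A group of 7 members had all 4 targets in B2B and none of them in A549. These were H1-1 and H1-5, genes of linker histones, H4C6, an H4 gene, and the divergent pairs H2AC7 with H2BC7 and H2BC8 with H2AC8. They made up 10.1% of the members, against 0.255% of all genes on chromosomes 1 to 12. Only 32 genes showed this combination in all, on 10 chromosomes. Of the other 25, 3 lay on chromosome 6, and 1 of those, ENSG00000282988, had its start at the same base as H2AC7. The 25 also held CDKN2A and its neighbour CDKN2B. The combination was chosen after its values had been seen, and DNA copy number at the 7 members was not tested.

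The B2B pol II values of the 7 genes ran from 5.62 to 45.0, with a median of 13.8, beside a median of 15.4 over all 65 members with a peak. The H2BC8 and H2AC8 pair, whose sequence is shown above, carried the highest pol II fold enrichment of any member in B2B, 45.0, at the percentile 99.8. Its Med1 peak had a fold enrichment of 32.7, its H3K27ac peak 11.5 and its H3K4me3 peak 10.5. In A549 the nearest pol II peak lay 6393 bp from the start of H2AC8 and the nearest H3K4me3 peak 5586 bp away.

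The H2AC7 and H2BC7 pair had 1 pol II peak of 2607 bp in B2B, with a fold enrichment of 13.8 at the percentile 94.0. Its Med1 peak reached 36.3 and its H3K27ac peak 22.3, at the percentiles 99.6 and 99.6. H3C4, the H3 gene beside this pair, shared the Med1 peak. H3C4 had its own pol II peak in B2B at 18.4 and none in A549, where an H3K4me3 peak at 11.2 had its summit 1484 bp downstream of the start.

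The 3 single genes of the group had lower Med1 and H3K4me3 fold enrichments than both pairs. H4C6 had pol II at 17.0, H3K4me3 at 5.61, H3K27ac at 15.3 and Med1 at 12.8 in B2B, with its pol II value above that of the H2AC7 and H2BC7 pair and its H3K27ac value above that of the H2BC8 and H2AC8 pair. H1-5, which encodes the linker histone H1.5, had 13.4, 4.5, 10.9 and 18.6 for the same targets. H1-1, which encodes a linker histone of restricted expression, had the lowest pol II value of the group, 5.62, at the percentile 61.5, and 5.17, 8.09 and 6.3 for H3K4me3, H3K27ac and Med1.

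The absence in A549 was of the peaks near these starts, not of the whole neighbourhood. The distance from a start to the nearest A549 peak of the 4 targets ran from 1798 bp at H1-5 to 5819 bp at H2BC8. H4C5, the H4 gene between both divergent pairs, had a pol II peak with a fold enrichment of 52.2 in A549 and 19.7 in B2B. The count of 7 depended on the window: all 4 targets in B2B and none in A549 were found at 10 members within 500 bp and at 4 within 3 kb. Within 3 kb, peaks in B2B and not in A549 went from 9 members to 5 for pol II, from 8 to 4 for H3K4me3 and from 8 to 5 for H3K27ac. The CTCF list of B2B had a peak at all 7 genes and the Rad21 list at 6, with H4C6 as the exception, and the Jun list at H2BC8 and H2AC8 alone, at 6.86. Over all 69 members the shares were 72.5% for CTCF, 79.7% for Rad21 and 33.3% for Jun. Over all coding genes they were 39.1%, 64.8% and 17.9%. Each divergent pair shared its strongest CTCF peak, and the CTCF percentiles of the 7 genes ran from 6.67 to 63.8.

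Another 4 members had mixed calls. H3C8, an H3 gene, had pol II at 17.7 in B2B and no pol II, H3K4me3 or Med1 peak in A549, where an H3K27ac peak of 181 bp reached its window with a fold enrichment of 5.82. H3C6 had pol II peaks within reach in both lines, at 29.2 in A549 and 38.9 in B2B. Their summits lay 64 and 81 bp downstream of an annotated start that stands upstream of the canonical one. Pol II covered 0.0% of the canonical transcript of H3C6 in both lines. H3C6 was the 1 member with an H3K27ac peak in A549 (7.86) and none in B2B. Its H3K4me3 value in B2B, 21.8, was the highest of any member there, but that peak also lay upstream of the canonical start. H2AC16 had its own pol II peak in A549 at 16.4, while the B2B peak within reach had its summit 2227 bp downstream and was shared with H1-5, and it lacked Med1 in A549. H3C4, described above, was the fourth.

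No peak of any of the 16 lists lay within 1 kb of H2AC1, H2BC1, H1-6 or H4C7. H2AC1, H2BC1 and H1-6 encode the testis forms of H2A, H2B and H1, and H4C7 was the 1 H4 member whose encoded protein differed from the other 14. The absence of all 4 targets from both lines was seen at 5.8% of members and at 22.9% of all genes. H4C3, the member before H1-6 in genome order, was marked in both lines.

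Where both lines had a peak, the median fold enrichments were well above those of B2B in A549 for pol II and both histone marks, and close for Med1. For pol II the median over 56 members was 57.1 in A549 and 15.2 in B2B, for H3K4me3 20.5 and 6.33 over 57 members, and for H3K27ac 47.0 and 13.7 over 56 members. For Med1 the medians were 17.7 and 17.4 over 55 members. Over all coding genes with a peak the pol II medians lay farther apart, at 46.6 in A549 and 4.73 in B2B. Fold enrichments of both lines are therefore set side by side only as descriptions, here and below. A gap between them is not read as a difference in binding.

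For pol II the pileups were closer between the lines than the fold enrichments. This did not hold for Med1, whose median pileups were 58.5 reads in A549 and 66.5 in B2B. Library depth is unknown, so the pileups are a description only. The pileup at the strongest peaks of members, solved from the deposited fold enrichment and p-value on the usual definitions of the peak caller, had a median of 279.0 reads for pol II in A549 and 224.0 in B2B. The local background had a median of 2.0 times the lowest of its list in A549 and 8.2 times in B2B. At the peaks of all coding genes it was 1.43 and 17.0 times.

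Ranked within its own list, pol II at members was high in both lines. The median percentile was 90.8 in A549 and 95.3 in B2B over the 56 members, while the strongest peaks of all coding genes had medians of 87.4 and 45.4. H3K27ac at members had median percentiles of 78.1 and 96.3 (84.1 and 68.2 for all coding genes), and H3K4me3 59.7 and 86.0 (80.0 and 56.5). Members as a group thus ranked below the median coding gene in A549 for both histone marks and above it in B2B. For H3K27ac in A549 this held for the median over the chromosome 6 members, 74.2, but not for that over chromosome 1, 92.5. For H3K4me3 in A549 both lay below, at 59.6 and 78.7. H4C16 lay above the coding median in A549 for both marks, at 96.9 for H3K27ac and 82.4 for H3K4me3. For Med1 the members stood at 93.2 and 95.4, against 71.0 and 73.3.

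The runs differed in strength, and not in the same order in both lines. In A549, pol II had a median fold enrichment of 44.5 over 22 members of the first run on chromosome 6, 88.9 over the 5 of the second, 80.6 over the 15 of the third, and 92.8 over the 11 at 1q21. In B2B the medians of the same members were 21.2, 12.5, 13.9 and 13.5. The first run was thus the lowest of these 4 in A549 and the highest in B2B. In A549 its 22 values, 27.9 to 58.8, did not reach the median of any of the other 3 runs, although single genes of those runs lay as low as 14.3.

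Of the 4 larger runs, Med1 was highest at 1q21 in both lines. Its median there was 39.4 in A549 and 51.4 in B2B, at the percentiles 99.4 and 99.8, and over the first run on chromosome 6 it was 12.3 and 10.5. The highest Med1 values of any member were 50.4 in A549, on a peak shared by H2AC19 and H3C15, and 56.3 in B2B, on a peak shared by H2AC18 and H3C14. These 4 genes belong to an inverted duplication and their reads cannot be assigned with certainty: H3C14 and H3C15 shared 100% and 99.8% of the 50-base words around their starts, H4C14 and H4C15 100%, and H2AC18 and H2AC19 87.8% and 87.7%. On chromosome 6, H4C11 and H4C12 shared 21.1%.

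The strongest pol II of A549 lay at the end of the third run, where H3C12, H2AC17 and H2BC17 shared a peak with a fold enrichment of 115.4, at the percentile 99.9. In B2B this peak reached 13.9, at the percentile 94.3. H2BC11 and H2AC11, whose promoter is shown above, followed in A549 at 111.2, and had 12.5 in B2B together with an H3K27ac peak of 33.6, at the percentile 99.97. H4C16, the lone gene on chromosome 12, had pol II at 95.4 and 12.9. Its H3K27ac value in A549, 103.7, was the highest of any member, level with the peak shared by H2AC17, H2BC17 and that other start of H3C12. The lowest pol II values of members with a peak were at H4C9 in both lines, 14.3 in A549 and 4.26 in B2B.

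**Figure D4:**
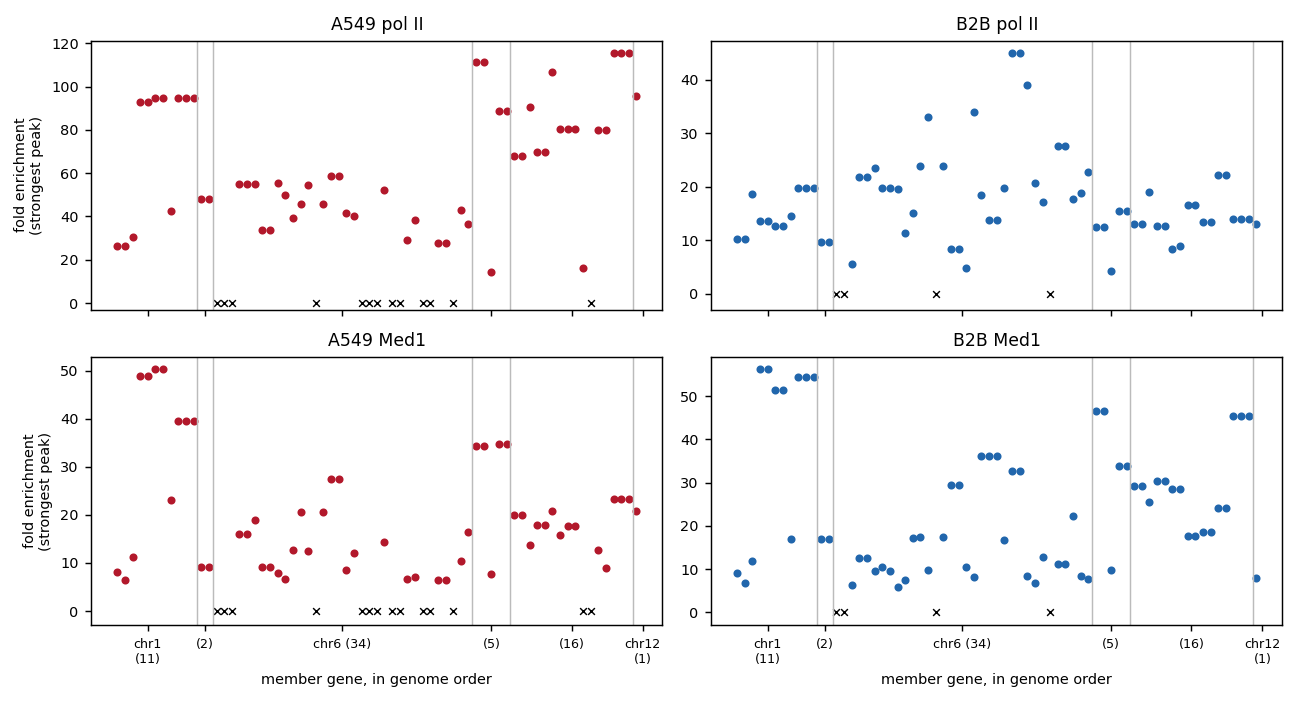
Fold enrichment of the strongest pol II and Med1 peak at each member in genome order, in A549 (red) and B2B (blue), with crosses at 0 for no peak, grey lines between the runs and the number of members of each run in brackets. Each point is 1 pooled list value, the axes differ between panels, and the first chromosome 6 run holds the lowest pol II median of the larger runs in A549 and the highest in B2B.

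Pol II covered the whole length of most members. Of the 68 members with a canonical transcript under 1 kb, 53 had pol II over the gene in A549 and 63 in B2B, and the peaks covered 100% of the transcript in 45 and 57 of them. The peaks reached past the 3′ end by a median of 420 bp in A549 and 792 bp in B2B. The longest reach was 2996 and 3057 bp at H1-4, a linker histone gene, where the same peak also covered the next gene, H2BC5. Of the strongest pol II peaks, 17 of 37 in A549 and 20 of 43 in B2B lay at 2 or more members. Signal past a 3′ end can therefore belong to a neighbouring gene. The strongest pol II peaks had a median width of 1674 bp in A549 and 1908 bp in B2B.

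The median summits stood in the same order along the genes in both lines. The median pol II summit lay 18 bp downstream of the canonical start in A549 and 30 bp in B2B, and the median Med1 summit 21 and 44 bp downstream. H3K4me3 followed at 136 and 138 bp, and H3K27ac at 150 and 174 bp. Divergent partners share a peak, so 1 summit counts as downstream for one gene and upstream for the other.

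**Figure D5:**
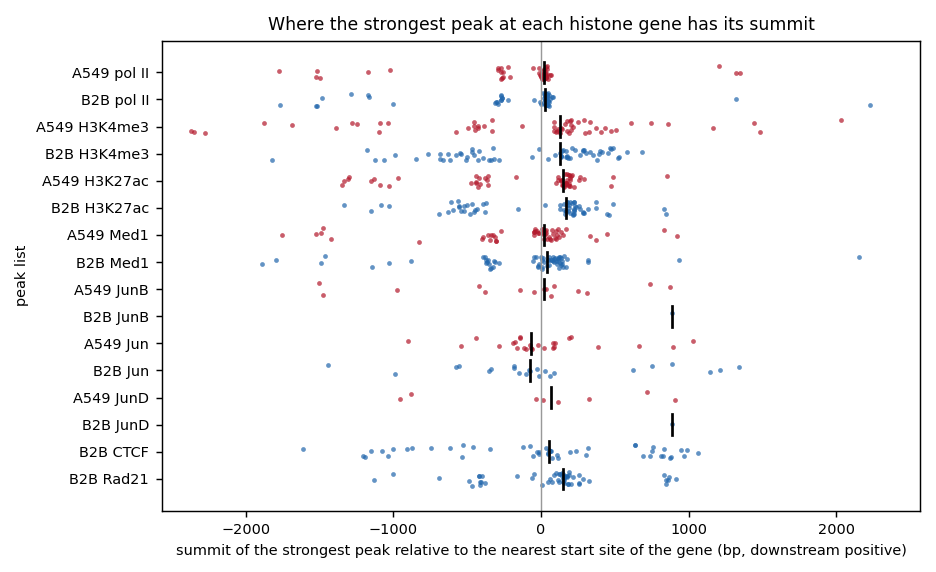
Position of the summit of the strongest peak at each member relative to the nearest annotated start of that gene (bp, downstream positive), by list, with A549 in red, B2B in blue and black bars at the medians. The pol II medians lie next to the start and those of H3K27ac 148 and 171.5 bp downstream, and the point farthest downstream is H2AC16 in B2B pol II, at 2227 bp.

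The Jun-family lists reached fewer members, and Jun was more frequent than JunB and JunD. JunB had peaks at 15 members in A549 and 1 in B2B, against 27.5% and 3.29% of all genes. Jun had peaks at 26 and 23 members, against 32.8% and 17.9%, and JunD at 8 and 1, against 15.9% and 1.96%. Peaks in A549 only and in B2B only were found at 14 and 0 members for JunB (24.9% and 0.66% of genes), at 11 and 8 for Jun (19.6% and 4.76%) and at 7 and 0 for JunD (15.0% and 1.04%). The A549 shares at members, 21.7% for JunB, 37.7% for Jun and 11.6% for JunD, were thus near their backgrounds. The Jun share in B2B, 33.3%, stood above its background.

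The JunB and JunD peaks of A549 ranked in the lower part of their lists, at members and at coding genes in general. The members' JunB peaks in A549 had fold enrichments of 3.50 to 6.93, with a median percentile of 25.9, and the JunD peaks 3.63 to 5.72, with a median percentile of 28.0. The strongest peaks at all coding genes had median percentiles of 40.0 and 44.2. When the longer list was cut to the length of the shorter by p-value, JunB lay at 0 members in A549 and at 1 in B2B. The JunB difference between the lines at the members thus depended on the length of the lists.

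By class, no H1 gene had a Jun-family peak in either line. Jun lay at 9 of 17 H2A, 6 of 18 H2B, 4 of 13 H3 and 7 of 15 H4 genes in A549, and at 6, 6, 3 and 8 in B2B. On chromosome 1, JunB lay at 7 of 13 members in A549 and at 0 in B2B, and JunD at 6 and 0. Over all genes the shares were 27.5% and 3.29% for JunB and 15.9% and 1.96% for JunD. In A549 these members lay on 4 distinct peaks for each protein. The JunB members H3C14, H2AC18, H2AC19 and H3C15 belong to the inverted duplication. The dependence of JunB on list length, given above, holds here too. On chromosome 6, JunB lay at 7 of 55 members in A549 and 1 in B2B, and JunD at 2 and 1. All 3 Jun-family proteins were found at 6 members in A549, namely H2AC19, H2BC21, H2AC20, H2AC21, H4C2 and H4C8, and at H4C2 alone in B2B. H2BC21, H2AC20 and H2AC21 shared the same strongest peak of each protein, and H2AC19 belongs to the inverted duplication. No share over all genes is given for this combination, so the count is a description only.

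H4C2 was the 1 member with peaks of all 7 shared targets in both lines. Its Jun peak had a fold enrichment of 18.4 in A549 and 35.4 in B2B, at the percentiles 79.3 and 95.9, and the B2B value was the highest Jun value of any member. JunB reached 3.50 and 6.27, and JunD 5.28 and 6.23. The CTCF peak, 64.9 in B2B at the percentile 99.5, was the strongest CTCF peak of any member. The summits of the strongest Jun-family peaks lay 874 to 908 bp downstream of the start of this gene, which is 388 bp long, and therefore beyond its 3′ end. The summit of this CTCF peak lay 827 bp downstream. A second Jun peak in A549, at 4.98, and a second CTCF peak, at 7.21, had their summits 58 and 33 bp upstream of the start, and no Rad21 peak lay within 1 kb.

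The hg38 sequence around the B2B Jun summit at H4C2 is shown because this site is the only one at the members with all 3 Jun-family proteins in both lines, and those around the A549 Jun summits at H4C5 and H3C2 for comparison. Capitals mark TGACGTCA, the cyclic AMP response element that Jun proteins can bind with ATF partners, a motif added after the values had been seen. The sequences are on the plus strand.
H4C2 (chr6:26026319-26026469): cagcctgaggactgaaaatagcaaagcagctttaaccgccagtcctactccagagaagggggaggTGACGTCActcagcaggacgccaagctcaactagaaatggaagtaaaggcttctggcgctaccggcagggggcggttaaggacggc
H4C5 (chr6:26204418-26204518): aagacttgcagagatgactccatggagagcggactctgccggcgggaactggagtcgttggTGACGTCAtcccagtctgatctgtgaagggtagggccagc
H3C2 (chr6:26032211-26032311): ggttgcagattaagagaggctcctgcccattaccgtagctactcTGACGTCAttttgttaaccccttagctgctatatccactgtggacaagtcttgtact

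Each window held 1 match of TGACGTCA, and the H4C2 window held no match of the AP-1 motif, TGACTCA or its reverse complement TGAGTCA. Over all Jun peaks at members, TGACGTCA lay within 50 bp of the summit in 5 of 27 peaks in A549 and 4 of 23 in B2B, against 5.07% and 4.32% of the Jun peaks at coding starts. For JunB in A549 it was 3 of 10 peaks (3.43%) and for JunD in A549 2 of 6 (4.26%). The single JunB and JunD peaks of B2B, both at H4C2, each held it. The genes concerned in A549 Jun were H4C2, H4C5, H4C8, H3C2 and H3C14.

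The AP-1 motif was found at a smaller share of the members' Jun-family summits than of those at coding starts. It lay within 50 bp of 2 of 27 Jun summits in A549 and 4 of 23 in B2B, against 23.0% and 38.2% of Jun peaks at coding starts. It lay at 0 of 10 JunB and 0 of 6 JunD summits in A549, against 26.1% and 16.4%. At the members' Jun summits in B2B, 4 of 23 held the AP-1 motif and 4 of 23 held TGACGTCA. In the 64 promoters the AP-1 motif was present in 0, against 3.68% of coding promoters, and TGACGTCA in 9, against 2.64%. A motif match describes the letters in a window and does not show which factor was bound.

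Jun peaks next in strength lay at genes of each core histone class. H4C8 had a Jun fold enrichment of 19.6 in A549 and 13.5 in B2B, with summits 24 and 28 bp upstream of the nearest annotated start. H4C5 had 18.4 and 18.2, with summits 142 and 100 bp upstream. H2BC21, H2AC20 and H2AC21 shared a peak of 13.4 in A549. H2AC15 had 14.3 in B2B, with the summit 1145 bp downstream of its start and beyond its 3′ end, as its transcript is 496 bp long. H2AC15 and H2BC15 shared a peak of 11.4 in A549 and one of 5.18 in B2B. H3C2 had 11.9 and 9.54, with summits 162 and 180 bp upstream. Of the 23 members with a Jun peak in B2B, the lowest values were at H2BC4 and H2AC6, which shared a peak of 3.65.

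CTCF and Rad21 were frequent at members in B2B, the line in which they were analysed. CTCF lay at 50 of 69 members and Rad21 at 55, against 39.1% and 64.8% of all genes. Both lay at 42 members, CTCF alone at 8, Rad21 alone at 13 and neither at 6, with no share over all genes given for these combinations. The median percentiles of these peaks were 29.5 for CTCF and 39.5 for Rad21, and those of the strongest peaks at all coding genes were 36.8 and 45.9. Apart from H4C2, the highest CTCF values were 24.2 at H3C6 and at the pair H2BC4 and H2AC6, and the highest Rad21 values were 14.6 at H4C16 and 12.6 at H1-1. The median CTCF summit lay 54.5 bp and the median Rad21 summit 149 bp downstream of the canonical start.

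The 12 genes listed as replication-independent histone genes all had H3K4me3 in A549 and in B2B. On the chromosomes covered by every list, 9 had pol II in A549, with a median fold enrichment of 68.6 at the percentile 93.9, and 8 had it in B2B, with 7.16 at the percentile 76.2. The replication-dependent members stood at the percentiles 90.8 and 95.5 over all their peaks. H2AX, the variant phosphorylated at DNA breaks, had pol II at 106.2 in A549 and 5.74 in B2B. H2AJ, which like H4C16 lies on chromosome 12, had 115.8 and 6.89.

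Genes that serve the histone locus body and the processing of histone transcripts were also marked in both lines. All 16 had H3K4me3 in both, and pol II lay at 12 of 12 scored in A549 and 15 of 16 in B2B. NPAT, the organiser of the body, had pol II at 74.6 in A549 and 9.49 in B2B. SLBP, which binds the stem-loop, had 52.2 and 4.23, and HINFP, the factor of H4 promoters, 40.0 and 3.02. None of NPAT, SLBP and HINFP had a Jun-family peak in either line, but others of the 16 genes did. In A549, JunB lay at 5 of the 16, Jun at 4 and JunD at 5. In B2B, Jun lay at 3 of the 16, and JunB and JunD at 0. Of the 20 other protein-coding genes inside the chromosome 6 span, 14 had pol II in A549 and 13 in B2B, and 7 and 11 had Med1.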

How the data were processed

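Per the labels and the methods of the study, the authors crosslinked and sonicated cells of both lines, aligned reads to hg38 with Bowtie2 2.4.4, removed duplicates with their own code, merged the 2 replicates of each target with SAMtools 1.13 and called peaks with MACS2 2.2.7.1. The options and the control given to the caller are not given in the sources used here. For each peak of a narrowPeak list the authors deposited a score (10 times −log10 q), a fold enrichment (the ratio of the pileup to the local background), a −log10 p-value and a −log10 q-value. The depth of the libraries is unknown, so no limit from depth could be given.

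Start sites were taken from GENCODE release 44. Peaks were assigned to genes within 1000 bp of any start with Python 3.11.15, NumPy 2.4.6 and pandas 2.3.3. Motifs were counted on both strands in RefSeq promoters and within 50 bp of summits, and pileups were solved from fold enrichment and p-value. These functions were tested on simulated data, with bedtools as the reference for the assignment. Plots were drawn with Matplotlib 3.10.9. No test was made, since each list pools its replicates. Members whose start windows shared over 20% of their 50-base words with another member were called near-identical copies.

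Every member could be named, and values are given for members without a peak, with H3K4me3 in 1 line only, with all 7 shared targets in both lines, with a Jun-family peak in B2B or with near-identical copies, for the 3 highest of each list and for genes of the comparison lists. The members and lists were chosen with earlier results of these data known. The combination of 4 targets, TGACGTCA at summits and the canonical start alone were added after the values were seen.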

Additional observations from a re-analysis of the deposited data

How the results depend on the processing

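The shares of members with a peak, and the shares with a peak in 1 line only, were recomputed under 9 alternatives: 500 bp or 3 kb in place of 1 kb, the 5′ end of the gene only, the canonical start only, the summit within 1 kb, a −log10 q of at least 5, lists of equal length, the 61 members without near-identical copies, and 46 merged start windows. Shares were used rather than the planned counts because merged windows change counts by construction, and a value was said to move when it left the Wilson 95% interval of the reported share, which treats genes as independent although neighbours share peaks. Of 286 values for 32 results, 270 stayed within it and 16 moved. Within 500 bp, JunB and JunD in B2B came to 0.0%, JunD in A549 to 5.8% and CTCF to 52.2%. Within 3 kb, H3K4me3 and H3K27ac in A549 came to 89.9% each, Jun in A549 to 50.7%, CTCF to 84.1%, and H3K4me3 in B2B and not A549 to 5.8%. By summit, pol II in B2B came to 84.1%, H3K4me3 in A549 to 63.8%, H3K4me3 in B2B and not A549 to 27.5%, and all 4 targets in both lines to 55.1%. With lists of equal length, JunB in A549 and JunB in A549 and not B2B came to 0.0%, and Jun in B2B and not A549 to 5.8%. Within the interval but by over 1.5 times within 3 kb, all 4 targets in B2B and none in A549 went from 7 members to 4, pol II in B2B and not A549 from 9 to 5, and H3K27ac in B2B and not A549 from 8 to 5. The cause was not tested beyond what each alternative changes by construction. CTCF and Rad21 have no list of equal length to compare with. No paired analysis was possible because the replicates had been merged before peak calling, and for the same reason no replicate could be left out.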

Other observations

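H2BC12L, an H2B gene on chromosome 21 whose symbol the rule left out, had an H3K4me3 peak with a fold enrichment of 10.4 in A549 and 4.5 in B2B. In B2B it also had pol II at 9.93 and H3K27ac at 8.73.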
